A study of Mus musculus with 12 samples.

Results

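A set of 9 transcription factor genes of macrophage identity and activation was followed: Spi1, Cebpa, Cebpb, Maf, Klf2, Klf4, Egr2, Bhlhe40 and Bhlhe41. They were chosen by name as factors of macrophage identity and polarisation, and their symbols were matched to the mouse Ensembl gene IDs of the deposited count tables. All 9 were found among 41388 genes, and all 9 held enough counts to be among the 12914 genes tested. The cells were mouse peritoneal macrophages drawn into the abdominal cavity by thioglycolate, collected on day 4 and put into culture, with stimulation on the following day. They carried LysM-Cre, a recombinase driven by a promoter active in myeloid cells, either alone (controls) or with a PPARγ deletion made by it (LysM-PPARg, labelled knockout). Each genotype received vehicle (BSA-PBS) or LPS (100 ng/ml), a bacterial endotoxin, combined with the saturated fatty acid palmitate (250 uM) for 8 h. The libraries were total RNA sequenced after Clontech SMARTer v1 preparation, 3 per group in 4 groups. All 4 groups share the Cre driver, so no group without it was compared. The labels do not say whether libraries of 1 group came from separate animals, so each p-value measures the spread between these libraries, which may be technical.

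PU.1, the product of Spi1, and the C/EBP factors open and occupy the enhancers that define macrophages, and the later-acting factors work largely on that ground. C/EBPα drives myeloid differentiation from progenitors, while C/EBPβ is the family member best known for induction by LPS in mature macrophages. MAF restrains proliferation and supports the programme of tissue-type macrophages, KLF2 and KLF4 oppose inflammatory activation, EGR2 takes part in the response to IL-4, and BHLHE40 and BHLHE41 are E-box binding repressors known from clock control and from macrophage proliferation.

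Promoters are shown for the members whose response to treatment differed between the genotypes (Cebpa and Cebpb) and for the member that differed most between the stimulated groups in the opposite direction (Klf4). Each is the 250 bases before a RefSeq start site on GRCm38.p6, written 5′ to 3′. Capitals mark a TATA box (TATAAA) in Cebpa, the core of the cAMP response element (TGACG) in Cebpb, and that core and the E-box CACGTG in Klf4, each read on either strand.
Cebpa chr7:35119043-35119292 (+ strand): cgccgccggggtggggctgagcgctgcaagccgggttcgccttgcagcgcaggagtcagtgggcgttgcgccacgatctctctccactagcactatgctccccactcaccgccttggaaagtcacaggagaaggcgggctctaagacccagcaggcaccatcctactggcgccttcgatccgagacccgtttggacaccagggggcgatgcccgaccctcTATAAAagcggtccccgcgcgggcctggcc
Cebpb chr2:167688665-167688914 (+ strand): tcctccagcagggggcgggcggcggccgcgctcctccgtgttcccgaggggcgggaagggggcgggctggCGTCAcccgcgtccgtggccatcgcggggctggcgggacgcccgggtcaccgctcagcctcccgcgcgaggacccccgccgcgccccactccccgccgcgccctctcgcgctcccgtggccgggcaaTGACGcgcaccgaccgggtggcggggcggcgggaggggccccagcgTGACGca
Klf4 chr4:55532476-55532725 (- strand): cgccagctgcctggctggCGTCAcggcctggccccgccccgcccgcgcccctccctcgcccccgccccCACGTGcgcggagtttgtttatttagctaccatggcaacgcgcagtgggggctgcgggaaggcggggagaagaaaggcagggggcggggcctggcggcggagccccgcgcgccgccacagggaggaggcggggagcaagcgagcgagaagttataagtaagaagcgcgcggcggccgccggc
The TATA box of Cebpa starts at position -30 from the start site and is found in 12.4% of the 32851 promoter windows of the table. The Cebpb window holds the core at positions -180, -53 and -7, and 17.8% of all windows hold at least 1. In the Klf4 window the core starts at -232 and the E-box at -182, and 6.02% of windows hold the E-box.

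Shorter stretches of 30 bases show the E-box of Bhlhe41, a gene whose own product binds that motif, and the CArG boxes of Egr2, the motif of serum response factor.
Bhlhe41 chr6:145865556-145865585 (- strand): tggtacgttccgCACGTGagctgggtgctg
Egr2 chr10:67537484-67537513 (+ strand): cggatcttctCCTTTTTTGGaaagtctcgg
Egr2 chr10:67537787-67537816 (+ strand): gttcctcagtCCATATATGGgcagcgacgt
The E-box of Bhlhe41 starts at position -153, upstream of the RefSeq start at 145865420. The CArG boxes of Egr2 each start at -72 from one of its RefSeq starts, at 67537566 and 67537869, and 1.47% of windows hold a CArG box. Windows existed for 6 of the 9 members (several for Egr2). Spi1, Maf and Bhlhe40 had no entry. Other motifs were searched on both strands in the same windows. No member's window held the full cAMP response element TGACGTCA (1.55% of all windows), the AP-1 site TGANTCA (6.75%) or the NF-kB-like site GGANNTTCC (3.59%). The C/EBP site TTNNGNAA (36.8%), the PU box GAGGAA (23.3%) and the interferon response core GAAANNGAA (7.13%) matched in Egr2 windows and in no other member's. The E-box also matched in an Egr2 window at -27, and the TGACG core in the Klf2 window at -241 and in 3 overlapping Egr2 windows. The KLF box CACCC (52.0%) matched in windows of Cebpa, Cebpb, Klf2, Bhlhe41 and Egr2, and in Cebpb 1 match at -177 overlaps the core at -180. These matches describe the letters in these windows and say nothing of binding.

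Each library held 17960457 to 22696385 counts. The count of Pparg, the targeted gene, went against its label: it was 61.0 to 62.3 CPM (counts scaled to a common library size by the TMM method) in vehicle controls and 91.0 to 111 CPM in vehicle libraries labelled knockout, a rise of 0.69 ± 0.11 on the log2 scale (adjusted p = 0.00124). The count is of the whole gene and was not split by exon, so it does not check the deletion, and each genotype direction here rests on the labels. Vehicle library 1 labelled knockout stood apart, at 26.2 on the second principal component (3.40% of the variance) against -3.55 and -7.17 for its group, with 0.918% of its counts in ribosomal protein genes against 0.662% and 0.673%. Of 8 macrophage markers Cd68 was the highest, at 4170.0 to 5870.0 CPM as group means. Cd14 had group means of 270.0 and 470.0 CPM in vehicle controls and vehicle libraries labelled knockout. In the stimulated groups it came second to Cd68, at 2090.0 CPM in controls and 1490.0 CPM in libraries labelled knockout. Csf1r had group means of 362 to 718 CPM and Adgre1 of 309 to 754 CPM. The rest were lower, among them Mertk (44.1 to 128 CPM), Fcgr1 (30.1 to 90.3 CPM) and Lyz2 (21.2 to 114 CPM). Gata6, the factor of resident large peritoneal macrophages, had group means of 0.91 to 3.04 CPM. The summed level of 12 fibroblast and mesothelial markers was 119 to 140.0 CPM in vehicle controls, 154 to 198 CPM in vehicle libraries labelled knockout, 126 to 145 CPM in stimulated controls and 184 to 335 CPM in stimulated libraries labelled knockout, led by Dcn, Col1a1 and Col1a2, with Pdpn at no more than 1 count in a library. Summed levels of the other marker lists were at most 2.47 CPM for T and NK cells, 0.261 for erythroid cells, 8.54 for eosinophils, 10.4 for mast cells and 13.9 for dendritic cells. B cell markers summed to 25.8 to 96.6 CPM, nearly all of it Cd22 (group means of 20.7 to 85.9 CPM), and large peritoneal macrophage markers to 40.7 to 287 CPM, led by Cd93.

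Levels differed widely between the factors. Per kilobase of exon, which allows genes to be compared, Bhlhe40 (145 ± 1.37 CPM per kb, SD, n = 3) and Bhlhe41 (109 ± 8.18) were the most abundant of the 9 in vehicle controls, followed by Egr2 (61.2 ± 1.19) and Spi1 (34.5 ± 2.35). Maf (4.71 ± 0.239), Cebpa (4.14 ± 0.316), Cebpb (3.19 ± 0.308) and Klf4 (1.69 ± 0.0842) were lower, and Klf2 was lowest at 0.578 ± 0.118 CPM per kb. In stimulated controls the order at the top turned, with Bhlhe41 at 140.0 ± 6.89 and Bhlhe40 at 83.8 ± 2.97 CPM per kb, and Cebpb (18.3 ± 1.01) moved above Cebpa (2.99 ± 0.471) and Maf (1.67 ± 0.315).

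**Figure D1:**
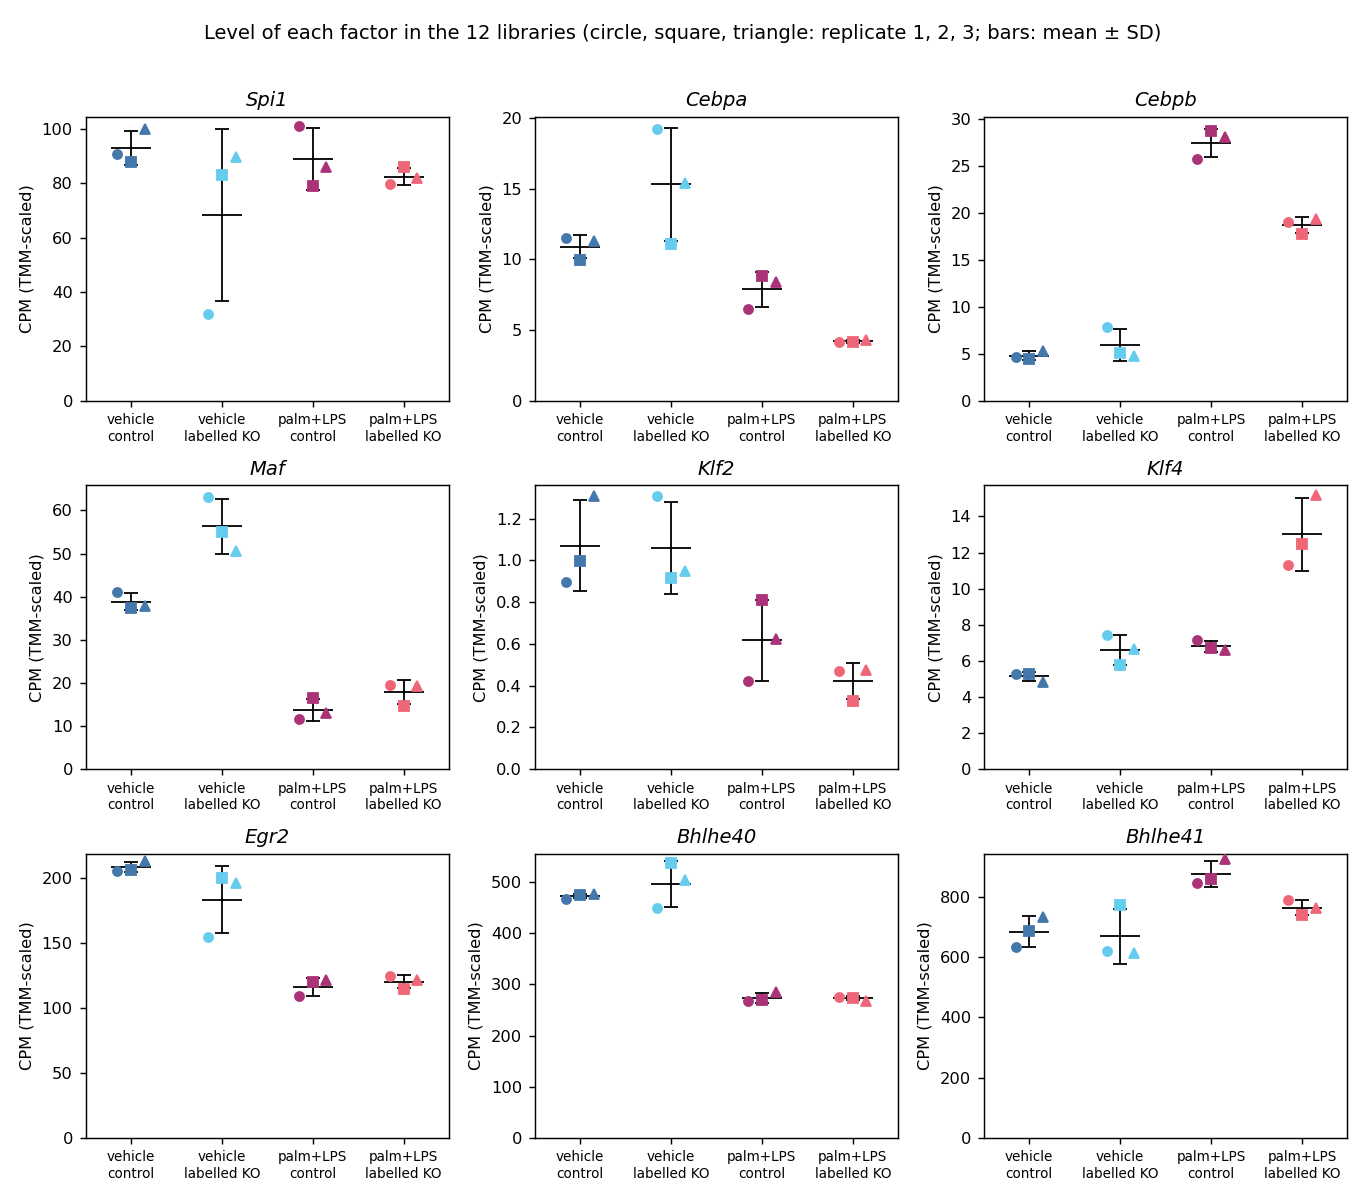
TMM-scaled CPM (vertical axes, starting at 0) of the 9 genes in the 4 groups, with 1 point per library and the group mean ± SD (n = 3). Cebpb is high in the stimulated groups, Maf, Egr2 and Bhlhe40 are high in the vehicle groups, and Spi1 is at a like level in every library but vehicle library 1 labelled knockout, at 32.0 CPM.

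Palmitate plus LPS changed most of the factors at 8 h. In controls, Cebpb, Klf4 and Bhlhe41 rose and Cebpa, Maf, Klf2, Egr2 and Bhlhe40 fell, while Spi1 was not called. That is 3 of 9 higher and 5 of 9 lower, against 32.0% and 34.7% of all genes tested (called means an adjusted p under 0.05 in edgeR's quasi-likelihood test, adjusted over all 12914 genes). In libraries labelled knockout, 2 of 9 rose (Cebpb and Klf4) and the same 5 fell, against 33.7% and 35.6% of all genes, and Spi1 and Bhlhe41 were not called. The median log2 response of the members was -0.47 in controls and -0.61 in libraries labelled knockout, beside -0.05 and -0.06 over all genes. Scaling by total counts in place of TMM moves the all-gene medians to -0.38 and -0.42 and the share of calls that are higher from 48.0% to 29.2% in controls and from 48.6% to 28.9% in libraries labelled knockout. Changes are therefore relative to the bulk of genes, and 2 small increases in controls depend on this: with total-count scaling Klf4 was 0.07 higher (adjusted p = 0.688) and Bhlhe41 0.03 higher (adjusted p = 0.806), neither called.

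**Figure D2:**
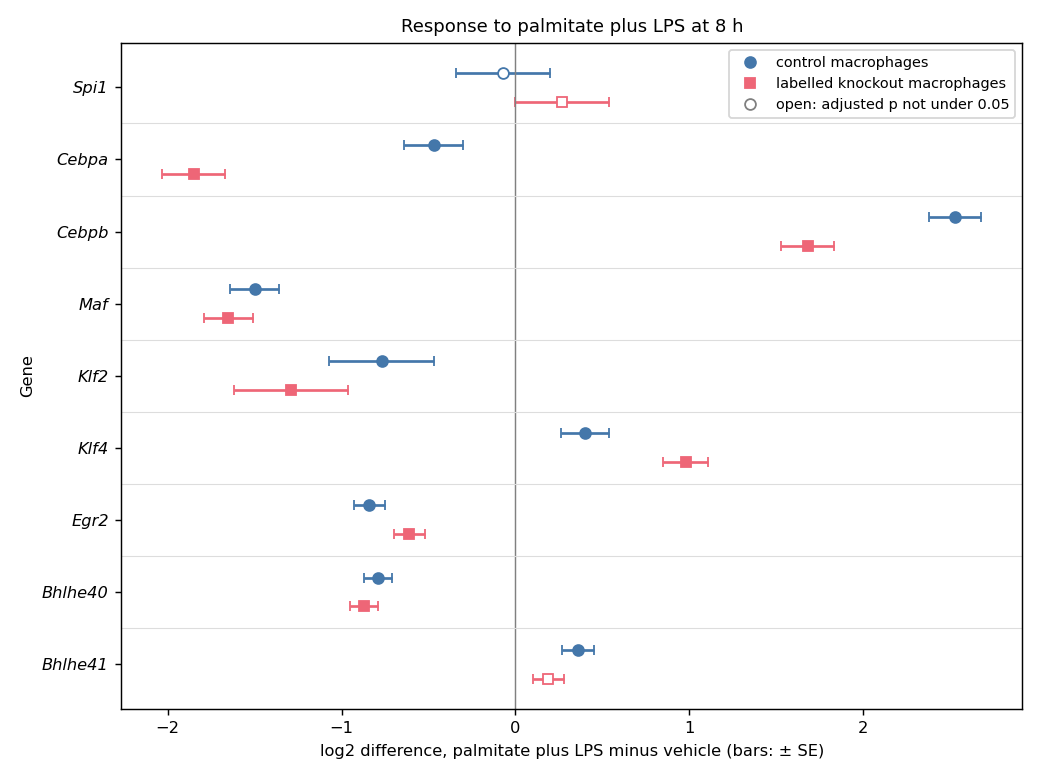
Log2 difference between palmitate plus LPS and vehicle (horizontal axis, ± SE) for the 9 genes in control libraries (circles) and libraries labelled knockout (squares), with filled symbols for adjusted p under 0.05. Cebpb has the highest value in both genotypes, and for Cebpa and Cebpb the values of libraries labelled knockout lie below those of the controls.

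Fewer members differed by genotype. In vehicle, Maf was higher in libraries labelled knockout and no member was lower, which is 1 of 9 and 0 of 9 against 2.11% and 1.69% of all genes. At an unadjusted p under 0.05 in edgeR, 3 were higher and 0 lower, and DESeq2 called 1 higher and 0 lower. After palmitate plus LPS, Klf4 was higher (1 of 9, against 10% of all genes) and Cebpa and Cebpb were lower (2 of 9, against 6.1%). The difference between the responses, that is the log2 response in libraries labelled knockout minus that in controls, was below 0 for Cebpa and Cebpb (2 of 9, against 3.35% of all genes) and was called above 0 for 0 of 9 (against 4.7%). At an unadjusted p under 0.05 in edgeR, 1 was above 0 (Klf4), and DESeq2 called 0 of 9 above 0. Median log2 values of the members and of all genes were 0.07 and 0.01 in vehicle, -0.11 and -0.01 after stimulation, and -0.16 and -0.01 for the difference of the responses. With total-count scaling the share of calls that are higher moved from 62.1% to 34.8% in the stimulated comparison and from 58.4% to 33.0% for the difference of the responses, while these members kept their calls. In bulk RNA, fewer cells of a type and less RNA per cell cannot be told apart.

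**Figure D3:**
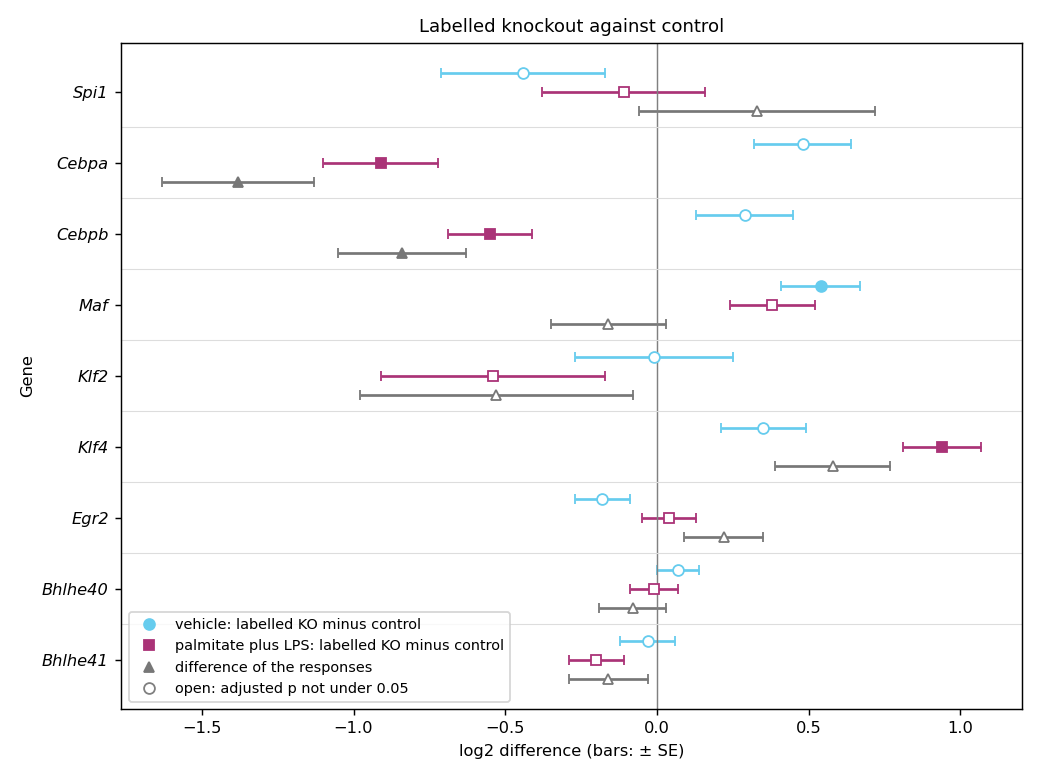
Log2 difference between labelled knockout and control libraries (horizontal axis, ± SE) in vehicle (circles) and after palmitate plus LPS (squares), and the difference of the responses (triangles), with filled symbols for adjusted p under 0.05. Cebpa and Cebpb lie above 0 in vehicle, where neither was called, and below 0 after stimulation. Klf4 lies above 0 in both and was called after stimulation only.

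Spi1 (ENSMUSG00000002111, GRCm38 chromosome 2, 91082390 to 91115756, plus strand) encodes PU.1, the ETS factor required for the myeloid lineage. Vehicle controls had 90.9, 88.0 and 100.0 CPM, and vehicle libraries labelled knockout had 32.0, 83.2 and 89.6 CPM. Stimulated controls had 101, 79.1 and 86.2 CPM and stimulated libraries labelled knockout 79.7, 85.9 and 81.8 CPM. All libraries but 1 lay between 79.1 and 101 CPM, and every pair of groups next to each other in level overlapped. The low library is the one that stood apart, with 610 counts of Spi1. Neither response was called (-0.07 ± 0.27 in controls, adjusted p = 0.844, and 0.27 ± 0.27 in libraries labelled knockout, adjusted p = 0.397), nor was the genotype difference in vehicle (-0.44 ± 0.27, adjusted p = 0.449). Without the low library the vehicle difference was -0.10 (adjusted p = 0.61) and the response in libraries labelled knockout -0.07 (adjusted p = 0.454). With no filter on low counts the vehicle difference was called at -0.45 (adjusted p = 0.000627, in a range of 0.000627 to 0.647 over 18 alternatives), as was the response in libraries labelled knockout at 0.24 (adjusted p = 0.0471, in a range of 0.0471 to 0.716).

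Genes known as PU.1 targets moved in both directions. Of 16 measured, 5 rose and 7 fell with treatment in controls, against 32.0% and 34.7% of all genes. In libraries labelled knockout 6 rose and 9 fell, against 33.7% and 35.6% of all genes. Cybb, a subunit of the NADPH oxidase, rose by 3.0 ± 0.08 in controls (702 to 5610.0 CPM), and Cd14, the LPS co-receptor, rose by 2.95 ± 0.12 (270.0 to 2090.0 CPM). Fcgr3, a low-affinity IgG receptor, fell from 455 to 167 CPM in controls (SE of the log2 change 0.13) and from 391 to 91.0 CPM in libraries labelled knockout (-2.1 ± 0.13), and its responses differed (-0.66 ± 0.18, adjusted p = 0.0364). Csf1r, the receptor of M-CSF, fell by 0.72 ± 0.12 in libraries labelled knockout (718 to 438 CPM). Its group means in controls were 620.0 CPM in vehicle and 362 CPM after stimulation. By genotype, 2 of 16 were higher in vehicle libraries labelled knockout, against 2.11% of all genes (Cd14 by 0.80 ± 0.11 and Ncf1 by 0.32 ± 0.07). After stimulation 4 were higher, among them Fcgr1 (1.22 ± 0.24), against 10% of all genes. Fcgr3 and Cd14 were lower, which is 2 of 16 against 6.1% of all genes. Without the vehicle library that stood apart, 4 of 16 were higher in vehicle, as with DESeq2, and 7 were higher after stimulation. With no filter on low counts 4 were higher and 3 lower in vehicle. After stimulation 2 were higher with total-count scaling and without stimulated library 3 labelled knockout.

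Cebpa (ENSMUSG00000034957, chromosome 7, 35119293 to 35121926, plus strand) encodes C/EBPα. Vehicle controls had 11.5, 9.95 and 11.3 CPM, and vehicle libraries labelled knockout 19.2, 11.1 and 15.4 CPM. Stimulated controls had 6.47, 8.80 and 8.39 CPM, and stimulated libraries labelled knockout 4.12, 4.17 and 4.31 CPM. Every stimulated library lay below every vehicle library, and the 3 stimulated libraries labelled knockout lay below every control. The vehicle groups overlapped. Cebpa fell with treatment in controls (-0.47 ± 0.17, adjusted p = 0.0244) and in libraries labelled knockout (-1.85 ± 0.18, adjusted p = 1.88e-07), a 3.61-fold drop. After stimulation it was 1.88-fold lower in libraries labelled knockout (-0.91 ± 0.19, adjusted p = 0.00438), while in vehicle it was 0.48 ± 0.16 higher without being called (adjusted p = 0.137). The responses differed by -1.38 ± 0.25 (adjusted p = 0.00477), and this held in all 17 alternatives (-1.57 to -1.19, adjusted p at most 0.0205), which include leaving out the library that stood apart (-1.19, adjusted p = 8.4e-05). The fall in controls was not called without vehicle control 1 (adjusted p = 0.073), vehicle control 3 (0.0623) or stimulated control 1 (-0.33, adjusted p = 0.127), in a range of 0.000415 to 0.127 over 18 alternatives. The vehicle difference was called without vehicle library 2 labelled knockout (0.66, adjusted p = 0.0153) and with no filter on low counts (0.46, adjusted p = 0.0222), in a range of 0.0153 to 0.406.

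Cebpb (ENSMUSG00000056501, chromosome 2, 167688915 to 167690418, plus strand) encodes C/EBPβ, an activator of acute-phase and cytokine genes. Vehicle controls had 4.67, 4.40 and 5.30 CPM and vehicle libraries labelled knockout 7.86, 5.10 and 4.74 CPM. Stimulated controls had 25.8, 28.7 and 28.1 CPM, and stimulated libraries labelled knockout 19.1, 17.8 and 19.4 CPM. The stimulated groups did not overlap with each other or with the vehicle groups, which overlapped with each other. The gene rose 5.76-fold in controls (2.53 ± 0.15, adjusted p = 4.26e-10) and 3.21-fold in libraries labelled knockout (1.68 ± 0.15, adjusted p = 5.57e-08), and after stimulation it was 1.47-fold lower in libraries labelled knockout (-0.55 ± 0.14, adjusted p = 0.0116). The responses differed by -0.84 ± 0.21 (adjusted p = 0.025), and 8 of 17 alternatives ended that call. These were the omission of vehicle control 1 (adjusted p = 0.0736) or 2 (0.0825), stimulated control 2 (0.0648) or 3 (0.0683), and stimulated library 1 (0.0551), 2 (0.0618) or 3 (0.0558) labelled knockout, and a replicate block (0.0543). The range over the 17 was 0.000918 to 0.0825, with values from -0.98 to -0.60. Without the library that stood apart it was -0.60 (adjusted p = 0.00891). In vehicle the genotype difference of 0.29 ± 0.16 was not called (adjusted p = 0.401). Without that library the vehicle difference was 0.05 (adjusted p = 0.922). The lower level after stimulation was not called without stimulated control 2 (adjusted p = 0.0502) or stimulated library 2 labelled knockout (0.0522), in a range of 9.11e-06 to 0.0522. On the opposite strand, Tmem189 shares 312 of the 1504 exon bases of Cebpb and had 505 to 1444 counts per library. The sources used here do not state whether counting used strand, so reads over the shared bases cannot be told apart.

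The balance of the C/EBP pair shifted with treatment. Cebpb over Cebpa, both per kilobase, was 0.713, 0.775 and 0.821 in vehicle controls and 0.718, 0.801 and 0.539 in vehicle libraries labelled knockout. It was 6.98, 5.71 and 5.86 in stimulated controls and 8.11, 7.46 and 7.88 in stimulated libraries labelled knockout. Cebpa was the more abundant gene per kilobase in all vehicle libraries and Cebpb in all stimulated ones, and the stimulated groups did not overlap.

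**Figure D4:**
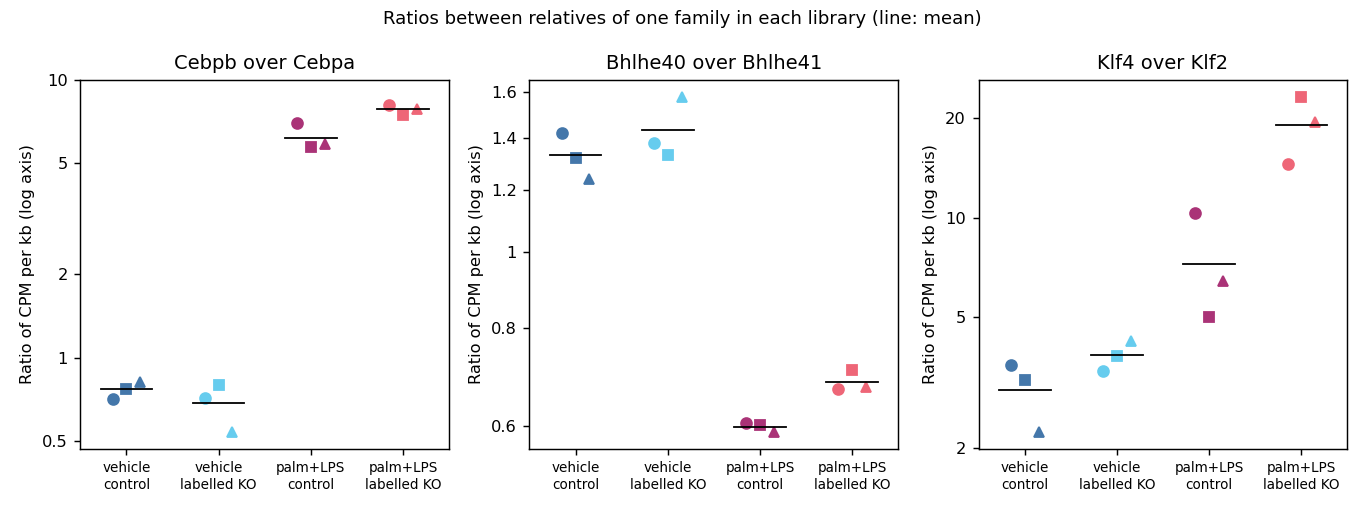
Ratio of TMM-scaled CPM per kb (logarithmic vertical axes) between Cebpb and Cebpa, Bhlhe40 and Bhlhe41, and Klf4 and Klf2 in each library, with the group mean as a line. The ratio of Cebpb to Cebpa is below 1 in vehicle and above 5 in all stimulated libraries, and that of Bhlhe40 to Bhlhe41 is above 1 in vehicle and below 1 after stimulation.

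Among other genes of the C/EBP family and its regulators, 4 of 5 were measured. Ddit3, which encodes the stress-induced CHOP, rose by 2.18 ± 0.17 in controls (51.3 to 233 CPM) and by 1.95 ± 0.17 in libraries labelled knockout. Cebpg, which dimerises with other C/EBP proteins, rose by 0.56 ± 0.11 and 0.67 ± 0.11, the former not called with total-count scaling. Trib1, a pseudokinase that targets C/EBPα for degradation, fell in both (-0.70 ± 0.20 and -1.04 ± 0.22). Cebpd, known for LPS induction, was low (group means of 0.452 to 0.755 CPM) and its responses were not called. By genotype edgeR called 0 of the 4 under either treatment, with 0 at an unadjusted p under 0.05, and DESeq2 called 0.

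Of 10 measured genes known as C/EBP targets, 9 rose and 1 fell in each genotype. Over all genes 32.0% rose and 34.7% fell in controls, and 33.7% and 35.6% in libraries labelled knockout. Il6 had 1.44 CPM in vehicle controls and 711 CPM in stimulated controls (8.93 ± 0.15), Nos2, the inducible nitric oxide synthase, rose by 8.02 ± 0.13, and Ptgs2, the inducible cyclooxygenase, rose by 8.49 ± 0.14. Arg1, the arginase of alternatively activated macrophages, fell by 4.35 ± 0.19. After stimulation 3 targets were higher in libraries labelled knockout, against 10% of all genes (Nos2 by 1.10 ± 0.09, Csf3r by 0.59 ± 0.09 and Ptgs2 by 0.57 ± 0.09). Lower were 2, against 6.1% of all genes (Lcn2, -0.55 ± 0.11, and Lyz2, -0.43 ± 0.10). The other 5 were not called. In vehicle, Arg1 was lower (-1.03 ± 0.13, adjusted p = 0.000203), which is 1 of 10 against 1.69% of all genes.

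Maf (ENSMUSG00000055435, chromosome 8, 115682942 to 115707794, minus strand) had 41.0, 37.4 and 37.9 CPM in vehicle controls and 63.2, 55.1 and 50.6 CPM in vehicle libraries labelled knockout. In stimulated controls it had 11.6, 16.6 and 13 CPM, and in stimulated libraries labelled knockout 19.6, 14.7 and 19.3 CPM. The vehicle groups did not overlap with each other or with the stimulated groups, which overlapped with each other. Treatment lowered Maf 2.83-fold in controls (-1.5 ± 0.14, adjusted p = 9.18e-08) and 3.15-fold in libraries labelled knockout (-1.65 ± 0.14, adjusted p = 2.06e-08), in all 18 alternatives of each. In vehicle it was higher in libraries labelled knockout (0.54 ± 0.13, adjusted p = 0.0265). That call was lost without vehicle control 1 (adjusted p = 0.0753), 2 (0.133) or 3 (0.101) and vehicle library 2 labelled knockout (0.0592), in a range of 0.00021 to 0.133 and of 0.45 to 0.61 over 18 alternatives. It was kept without the library that stood apart (0.45, adjusted p = 0.0154). The stimulated difference was 0.38 ± 0.14 (adjusted p = 0.0809), and was called without stimulated control 2 (0.54, adjusted p = 0.0286), stimulated library 2 labelled knockout (0.50, adjusted p = 0.0363) or the library that stood apart (0.38, adjusted p = 0.0225) and with no filter on low counts (0.37, adjusted p = 0.028), in a range of 0.0225 to 0.259.

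Beside the higher Maf in vehicle libraries labelled knockout, the summed fibroblast and mesothelial markers were 154 to 198 CPM against 119 to 140.0 CPM. Of these 12 markers 11 were tested, and edgeR called 0 in vehicle, with 2 higher at an unadjusted p under 0.05, while DESeq2 called 1 higher. The summed level of 9 neutrophil markers was 110.0 to 113 CPM against 76.8 to 80.5 CPM, with 1 of the 4 tested called higher, against 2.11% of all genes. It was led by Csf3r, Mmp8 and S100a8, while Ly6g had 0 counts in every library and S100a9 no more than 2. The part of these in the difference was not tested.

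Of 9 measured genes known as MAF targets, 5 were higher in vehicle libraries labelled knockout, against 2.11% of all genes. The other 4 were not called. After stimulation 7 were higher, against 10% of all genes, and 2 were not called. All 9 fell with treatment in each genotype, against 34.7% of all genes in controls and 35.6% in libraries labelled knockout. In vehicle, 6 were higher and 1 lower at an unadjusted p under 0.05 in edgeR, and with no filter on low counts 5 of 10 were called higher and 1 lower. In vehicle, Folr2, a folate receptor, was higher by 1.28 ± 0.13 (15.4 to 37.4 CPM), and the complement genes C1qa and C1qc were each higher by 0.79, with SEs of 0.08 and 0.09. After stimulation, C1qa was higher by 0.75 ± 0.08, C1qb by 0.70 ± 0.11 and Stab1, a scavenger receptor, by 0.65 ± 0.13. With treatment Stab1 fell in controls (33.8 to 6.62 CPM, -2.35 ± 0.12), as did F13a1, which encodes a subunit of coagulation factor XIII (-3.12 ± 0.26). Genotype counts were the same with RLE size factors, total-count scaling and DESeq2. The fall in controls covered 8 of 9 with RLE size factors and with DESeq2. The median log2 value of the list was 0.73 in vehicle and 0.52 after stimulation, beside 0.01 and -0.01 over all genes.

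All 6 relatives of Maf that were listed changed with treatment in both genotypes, 3 up and 3 down. Over all genes 32.0% went up and 34.7% down in controls, and 33.7% and 35.6% in libraries labelled knockout. Bach2 and Bach1, repressors that pair with small MAF proteins, fell in controls (-2.14 ± 0.21 and -0.79 ± 0.10). The small MAF genes Maff, Mafk and Mafg rose by 3.95 ± 0.21, 1.63 ± 0.12 and 1.21 ± 0.10 in controls. After stimulation 2 of the 6 were higher in libraries labelled knockout, among them Mafk (0.42 ± 0.11), against 10% of all genes. Maff was lower (-1.21 ± 0.16), which is 1 of 6 against 6.1% of all genes. With total-count scaling, and without stimulated library 3 labelled knockout, 1 was higher and 1 lower.

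Klf2 (ENSMUSG00000055148, chromosome 8, 72319033 to 72321656, plus strand) was barely detected. It had 24, 26 and 26 counts in vehicle controls and 25, 23 and 23 in vehicle libraries labelled knockout. After stimulation it had 8, 15 and 12 counts in controls and 8, 6 and 9 in libraries labelled knockout. Every stimulated library lay below every vehicle library, and the genotypes overlapped under both treatments. It fell in controls (-0.77 ± 0.30, adjusted p = 0.0318) and in libraries labelled knockout (-1.29 ± 0.33, adjusted p = 0.00232). The fall in controls was lost in 6 of 18 alternatives. They were no filter on low counts (adjusted p = 0.0505), DESeq2 (0.079), and the omission of vehicle control 2 (0.0511) or 3 (0.112) or of stimulated control 1 (0.147) or 3 (0.0708), in a range of 0.00233 to 0.147. No genotype difference was detectable at this depth (-0.01 ± 0.26 in vehicle and -0.54 ± 0.37 after stimulation, adjusted p = 0.987 and 0.345).

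Klf4 (ENSMUSG00000003032, chromosome 4, 55527143 to 55532466, minus strand) had 5.30, 5.28 and 4.85 CPM in vehicle controls and 7.44, 5.77 and 6.64 CPM in vehicle libraries labelled knockout. It had 7.16, 6.69 and 6.58 CPM in stimulated controls, and 11.3, 12.5 and 15.2 CPM in stimulated libraries labelled knockout. The last group lay above all others, and vehicle controls lay below all others. After stimulation Klf4 was 1.91-fold higher in libraries labelled knockout (0.94 ± 0.13, adjusted p = 0.000184), in all 18 alternatives (0.81 to 1.03, adjusted p at most 0.0023). In vehicle the difference of 0.35 ± 0.14 was not called (adjusted p = 0.202), although the groups did not overlap. Treatment raised it by 0.40 ± 0.14 in controls (adjusted p = 0.0185) and by 0.98 ± 0.13 in libraries labelled knockout (adjusted p = 5.93e-06). The rise in controls was also lost without vehicle control 3 (adjusted p = 0.0571) or stimulated control 1 (0.0527), in a range of 0.00587 to 0.688 over 18 alternatives. The responses differed by 0.58 ± 0.19 without being called (adjusted p = 0.0715), and without the library that stood apart by 0.67 (adjusted p = 0.0148, in a range of 0.0148 to 0.171).

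Klf4 is also known in endothelial and stromal cells. Between the stimulated groups, 11 of 12 fibroblast and mesothelial markers were tested. Of these, 6 were higher in libraries labelled knockout, against 10% of all genes (the 12 summed to 184 to 335 CPM against 126 to 145 CPM). Among 8 endothelial markers 3 were tested and 2 were higher, against the same 10% (summed 30.3 to 33.8 CPM against 16.7 to 18.7 CPM). That sum was led by Vwf and Kdr, with Tek at no more than 1 count, Emcn at no more than 2 and Ptprb at no more than 3. Of 9 neutrophil markers 4 were tested, with 2 higher and 1 lower, against 10% and 6.1% of all genes. The 9 summed to 144 to 174 CPM against 107 to 116 CPM. Most of these sums was Csf3r (group means of 136 and 90.6 CPM), which also stands in the PU.1 and C/EBP target lists. Mitochondrial genes took 0.606% to 0.676% of the counts in stimulated controls and 0.506% to 0.524% in stimulated libraries labelled knockout, and ribosomal protein genes 0.645% to 0.681% and 0.566% to 0.585%. In vehicle the mitochondrial share was 0.973% to 1.035% in controls and 0.754% to 1.107% in libraries labelled knockout. The part of these in the levels of Klf4, Cebpa and Cebpb was not tested.

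The ratio of Klf4 to Klf2 per kilobase was 3.58, 3.22 and 2.24 in vehicle controls and 3.44, 3.82 and 4.24 in vehicle libraries labelled knockout. After stimulation it was 10.3, 5.01 and 6.41 in controls and 14.5, 23.3 and 19.5 in libraries labelled knockout. The stimulated groups did not overlap, though the low counts of Klf2 make the ratio imprecise.

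All 7 genes known as KLF2 or KLF4 targets fell with treatment in both genotypes, against 34.7% and 35.6% of all genes. Thbd, which encodes thrombomodulin, fell by 4.84 ± 0.18 in controls (23.3 to 0.811 CPM), and S1pr1, the sphingosine phosphate receptor, fell by 3.18 ± 0.16 in libraries labelled knockout (22.5 to 2.46 CPM). The list includes Pparg itself (-4.11 ± 0.14 in controls and -4.47 ± 0.14 in libraries labelled knockout). After stimulation edgeR and DESeq2 each called 0 of 7 by genotype, with 1 lower at an unadjusted p under 0.05 in edgeR. In vehicle, Pparg was higher and Arg1 lower in libraries labelled knockout, against 2.11% and 1.69% of all genes. Of 9 other KLF genes measured of 15, 4 rose and 3 fell in controls, against 32.0% and 34.7% of all genes. Klf7 fell by 1.64 ± 0.11 (33.2 to 10.6 CPM) and Klf8 rose by 1.07 ± 0.14. Klf6, a widely expressed family member, rose by 0.44 ± 0.08 to 582 CPM, a call lost with total-count scaling. With that scaling 1 of the 9 rose and 5 fell.

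Egr2 (ENSMUSG00000037868, chromosome 10, 67535475 to 67542188, plus strand) had 205, 206 and 213 CPM in vehicle controls and 154, 200 and 196 CPM in vehicle libraries labelled knockout. In stimulated controls it had 109, 120.0 and 121 CPM, and in stimulated libraries labelled knockout 124, 114 and 121 CPM. Every vehicle library lay above every stimulated one, and the genotypes overlapped after stimulation. Egr2 fell 1.79-fold in controls (-0.84 ± 0.09, adjusted p = 9.68e-07) and 1.53-fold in libraries labelled knockout (-0.61 ± 0.09, adjusted p = 2.59e-05), in all 18 alternatives of each. The vehicle groups did not overlap, but the difference of -0.18 ± 0.09 was not called (adjusted p = 0.357) and was -0.07 without the library that stood apart (adjusted p = 0.699). Related genes were far lower. Egr1, the immediate early relative, had group means of 0.899 to 1.52 CPM and fell by 0.74 ± 0.27 in controls (adjusted p = 0.0263), a call that DESeq2 did not make. The corepressor genes Nab1 and Nab2 were not called in either response, though total-count scaling called 2 of the 3 measured genes of this list lower in each. By genotype edgeR called 0 of these 3 under either treatment, with 1 lower at an unadjusted p under 0.05 under each. Total-count scaling called 1 lower after stimulation, and DESeq2 called 0.

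Immediate early genes, to which Egr1 belongs, moved in both directions. Of 13 measured, 6 rose and 6 fell in controls, against 32.0% and 34.7% of all genes. In libraries labelled knockout 5 rose and 2 fell, against 33.7% and 35.6% of all genes. Ier3 rose by 4.60 ± 0.16 in controls (13.4 to 324 CPM) and Fos fell by 2.42 ± 0.11 (23.6 to 4.39 CPM). With total-count scaling 5 rose and 7 fell in controls, and 5 rose and 5 fell in libraries labelled knockout. The summed level of the list was 989 to 1010.0 CPM in vehicle controls and 866 to 968 CPM in vehicle libraries labelled knockout. It was 1790.0 to 1840.0 CPM in stimulated controls and 1720.0 to 1810.0 CPM in stimulated libraries labelled knockout. The sum was led by Atf3 in every group (group means of 635 and 1140.0 CPM in vehicle and stimulated controls). Its rise in controls came mostly from Atf3 and Ier3, not from the list as a whole.

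Bhlhe40 (ENSMUSG00000030103, chromosome 6, 108660629 to 108666925, plus strand) had 468, 475 and 477 CPM in vehicle controls and 449, 537 and 504 CPM in vehicle libraries labelled knockout. Stimulated controls had 267, 270.0 and 285 CPM, and stimulated libraries labelled knockout 276, 273 and 268 CPM. The treatments were fully separate and the genotypes overlapped under each. It fell 1.73-fold in controls (-0.79 ± 0.08, adjusted p = 1.48e-07) and 1.82-fold in libraries labelled knockout (-0.87 ± 0.08, adjusted p = 4.46e-08), in all 18 alternatives of each. The genotype difference was 0.07 ± 0.07 in vehicle (adjusted p = 0.66) and -0.01 ± 0.08 after stimulation (adjusted p = 0.958).

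Bhlhe41 (ENSMUSG00000030256, chromosome 6, 145858243 to 145865558, minus strand) had 633, 686 and 735 CPM in vehicle controls and 621, 773 and 613 CPM in vehicle libraries labelled knockout. Stimulated controls had 846, 859 and 926 CPM, and stimulated libraries labelled knockout 790.0, 741 and 764 CPM. Stimulated controls lay above all other libraries, and stimulated libraries labelled knockout overlapped with their vehicle group. It rose by 0.36 ± 0.09 in controls (1.28-fold, adjusted p = 0.00321), which total-count scaling removed as given above (range of adjusted p 5.32e-05 to 0.806). In libraries labelled knockout the response of 0.19 ± 0.09 was not called (adjusted p = 0.0763), and it was called without vehicle library 2 labelled knockout (0.31, adjusted p = 0.00541, in a range of 0.00541 to 0.244). The responses were not shown to differ (-0.16 ± 0.13, adjusted p = 0.442). After stimulation the difference of -0.20 ± 0.09 was not called (adjusted p = 0.165). It was called in 3 of 18 alternatives, with total-count scaling (-0.28, adjusted p = 0.0477), in a fit of the 2 groups alone (-0.20, adjusted p = 0.0108) and without the library that stood apart (-0.20, adjusted p = 0.0352), in a range of 0.0108 to 0.402.

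The order of the pair turned with treatment. Bhlhe40 over Bhlhe41 per kilobase was 1.42, 1.32 and 1.24 in vehicle controls and 1.38, 1.33 and 1.58 in vehicle libraries labelled knockout. It was 0.604, 0.602 and 0.589 in stimulated controls and 0.669, 0.706 and 0.672 in stimulated libraries labelled knockout. Bhlhe40 was the more abundant of the pair in all vehicle libraries and Bhlhe41 in all stimulated ones, and the ratio was higher in all stimulated libraries labelled knockout than in the stimulated controls.

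Clock genes, among which BHLHE40 and BHLHE41 are known as repressors, mostly fell. Of 15 measured, 11 fell and 1 rose in controls, against 34.7% and 32.0% of all genes. In libraries labelled knockout 10 fell and 1 rose, against 35.6% and 33.7% (0 rose and 12 fell there with total-count scaling). Without the vehicle library that stood apart 3 rose in controls. In controls, Per3 (14.6 to 3.09 CPM, -2.23 ± 0.16), Tef, a PAR bZIP factor (18.3 to 3.84 CPM, -2.26 ± 0.17), and Nr1d1, which encodes REV-ERBα (-2.14 ± 0.18), all fell. Nfil3, a bZIP repressor, rose by 1.88 ± 0.20 in controls and by 0.65 ± 0.19 in libraries labelled knockout, and these responses differed (-1.23 ± 0.28, adjusted p = 0.0164). Time of day of collection is not given in the sources used here. By genotype, Rora was lower after stimulation (-0.48 ± 0.11, adjusted p = 0.00764), which is 1 of 15 against 6.1% of all genes. In vehicle edgeR called 0 of 15, with 2 at an unadjusted p under 0.05, while DESeq2 called 1 higher.

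Of 29 measured other factors of macrophage lineage and polarisation, 9 rose and 17 fell in controls, against 32.0% and 34.7% of all genes. In libraries labelled knockout 9 rose and 13 fell, against 33.7% and 35.6% of all genes. Ets2 rose by 2.27 ± 0.16 in controls and by 3.21 ± 0.17 in libraries labelled knockout, and Tfec, a relative of MITF, rose by 1.58 ± 0.11 in controls. In controls Fli1, an ETS factor (-1.67 ± 0.09), and Id3, an inhibitor of basic helix-loop-helix factors (-2.94 ± 0.18), fell. With total-count scaling 6 rose and 18 fell in controls. In vehicle, Nr1h3, which encodes LXRα and is a known PPARγ target, was lower in libraries labelled knockout (40.8 against 88.5 CPM, -1.12 ± 0.12, adjusted p = 2.12e-05), and Irf4 (0.85 ± 0.19) and Batf3 (0.61 ± 0.14) were higher. That is 2 of 29 higher and 1 of 29 lower, against 2.11% and 1.69% of all genes. DESeq2 called 5 higher and 1 lower in vehicle, and no filter on low counts gave 4 and 2. After stimulation 6 were higher and 3 lower, against 10% and 6.1% of all genes. Without the vehicle library that stood apart 12 were higher, without stimulated library 3 labelled knockout 4 were, and with total-count scaling 3 were, each with 3 lower. Ikzf1, the lymphoid and myeloid factor Ikaros, was higher by 0.75 ± 0.13, and Batf3, an AP-1 family factor, was lower (-1.39 ± 0.14) with responses that differed by -2 ± 0.2 (adjusted p = 4.31e-05). Several genes stand in more than 1 of these lists, among them Mrc1, Arg1 and Csf3r.

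The genes most like each factor over the 12 libraries were found by Pearson's r of log2 CPM among 6932 genes. This is a description, in which the treatment groups set most of the spread of most factors. Hmox1 (r = 0.996) and Lyz2 (0.995) were most like Cebpb, and 801 genes had an r over 0.95 with it. Sh2d3c (0.993) was among the genes most like Bhlhe40, with Rpa1 (0.993) and Arid1b (0.992) most like Egr2, and Ptgs1 (0.988) and Lsp1 (0.987) most like Maf. Cebpa was most like Rnf130 (0.983) and Fkbp1b (0.974), and Klf2 most like Ube2l3 (0.968) and Lcmt1 (0.967). Klf4 was most like Inpp1 (0.969) and Gypc (0.956), with 3 genes over 0.95, and Bhlhe41 most like Rad52 (0.918) and Wdr4 (0.905), with 0 genes over 0.95. Spi1 was most like Mff (0.97) and Cdc16 (0.962). Its spread came mostly from 1 library, vehicle library 1 labelled knockout at 32.0 CPM, as the others lay between 79.1 and 101 CPM. These r values therefore rest largely on that library.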

How the data were processed

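Per the submitters' processing notes, reads were processed with bcl2fastq 2.0, STAR 2.0.4b, Subread and featureCounts 1.45 on GRCm38. The options, the annotation and the use of strand were not given in the sources used here. The authors deposited, per library, whole-number counts for 41388 Ensembl genes, with CPM (scaled to the library total) and RPKM (CPM divided by exon length). Recomputed from the deposited counts, CPM and RPKM were identical to rounding error, and only the counts entered tests.

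Genes were filtered with filterByExpr by group, leaving 12914 genes, which held 99.92% or more of the counts in every library. After TMM scaling the libraries were fitted with 1 mean per group in edgeR 4.0.16 (limma 3.58.1, R 4.3.3; quasi-likelihood F-test, robust). The biological coefficient of variation was 0.104. P-values were adjusted by Benjamini-Hochberg over all genes tested, with a threshold of 0.05. The 5 comparisons were genotype in each treatment, treatment in each genotype, and the difference of the responses. The procedure was tested on simulated data. Levels are TMM-scaled CPM, and likeness used log2(CPM + 0.5) of genes with a mean of at least 10 CPM. Alternatives were RLE size factors, total-count scaling, DESeq2 1.42.0, no filter on low counts, a fit of 2 groups alone, a replicate block, and each library left out. Depth limits the precision of Klf2 most.

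All 9 members were named whatever their p. Of each of 11 gene lists up to 3 genes per direction with the smallest p in a comparison were named (all genes of a list with at most 4 measured), and of each of 11 marker lists up to 3 with the highest CPM and those near 0. Members and lists were chosen with earlier results of these data known. Samples were grouped by their titles, and the labels give palmitate in 1 field and palmitate with LPS in the treatment text. Promoter sequences are from RefSeq (GRCm38.p6) and were matched by symbol. Values of some genes that the naming rule covers are not reported here.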

Additional observations from a re-analysis of the deposited data

Results flagged for a closer look

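The response to palmitate plus LPS differed between the genotypes for 2 of the 9 factors, by the test of that difference itself. Both lay below 0, beside 3.35% of all genes called below 0 and 4.7% above. Cebpa fell further in libraries labelled knockout, with responses that differed by -1.38 on the log2 scale. Cebpb rose less in them, with responses that differed by -0.84. Every stimulated library labelled knockout lay below every stimulated control for both genes. The first difference was called in all 17 alternatives and the second in 9 of 17.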

How the results depend on the processing

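Of 800 alternative values for the 45 results on members, 759 kept their call, 28 lost it, 13 gained one and 0 called results changed direction. In vehicle, members called by genotype numbered 3 with no filter on low counts and 0 with the replicate block, and all genes called 960 with no filter and 229 in the fit of 2 groups alone. In that fit the stimulated comparison called 3811 genes. For the difference of the responses, the replicate block called 1 member and 514 genes, and no filter called 1875 genes.

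Leaving out each library in turn gave 0 to 1 members and 261 to 789 genes in vehicle, 3 to 5 members and 1227 to 4080 genes after stimulation, 5 to 8 members for the response in controls, and 1 to 3 members and 428 to 1962 genes for the difference of the responses. The cause was not tested. Without vehicle library 1 labelled knockout, genes called numbered 789 in vehicle, 4080 after stimulation and 1752 for the difference of the responses.

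Deviations from group means correlated at -0.672 to 0.305 between same-numbered libraries (5 of 18 over 0.1). Between other-numbered ones they correlated at -0.54 to 0.673 (15 of 36). With 3 libraries per group these deviations depend on each other, so this check cannot exclude pairing by replicate number. Beside the calls named above, the replicate block ended that of Maf in vehicle (adjusted p = 0.0687). The fit of 2 groups alone gives no value for the difference of the responses. With 3 libraries per group, depth limits Klf2 most, at 6 to 26 counts per library.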
